A study of Mus musculus with 4 samples.

Results

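Keratins are the intermediate filament proteins of epithelial cells, and desmosomes are the junctions that tie those filaments together from cell to cell. The genes described here are every keratin that the array names as Krt followed only by digits, 14 genes of the desmosome, and 4 filament genes that are no keratins (Vim, Des, Nes and Synm). They were picked by a rule on names that uses no values, but with earlier results of these data known. The rule took 66 of the 34821 gene names on the array, measured by 91 of 55681 probes (109 of 59305 spots on each array). They comprised 48 keratins (26 of type I and 22 of type II), 5 desmosomal cadherins, 9 proteins of the desmosomal plaque or associated with it, and the 4 non-keratin filament genes.

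The study compared islet-like clusters with islets of Langerhans on 4 single-colour Agilent arrays, 2 for each group, all on 1 slide with 1 scan time. Every sample was pancreatic material of Swiss albino mice, labelled as male and 10 to 12 weeks old. For the clusters, pancreata were digested with collagenase, and the fibroblast-like cells that attached to plastic were passaged and called mesenchymal stromal cell-like by the submitters. These were then held for 10 days in serum-free medium with albumin, insulin, transferrin and selenium on low-adherence dishes. Taurine was added at 0.3 mM on day 3, and on day 7 the medium held nicotinamide (100 mM), more taurine (3 mM) and GLP-1, an incretin peptide. The islets were flushed from the same kind of digest after 48 h in culture according to their titles, while their descriptions call them freshly isolated. Mice were killed in groups of 2 to 4, and no label tells if both samples of a kind stem from separate animals. All p-values here thus rest on the spread between arrays and may reflect technical spread alone. The attached cells before induction were not among the arrays, so the values set clusters against islets and do not show what the induction changed.

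Keratin filaments are built from pairs of 1 type I and 1 type II protein, so a cell that makes filaments needs at least 1 gene of each type. Simple epithelia such as pancreatic duct, acinar and islet tissue carry Krt8 paired with Krt18, ducts add Krt19 and Krt7, and stratified epithelia, hair and nail use further pairs. Desmosomal cadherins (desmogleins and desmocollins) span the membrane, plakoglobin and plakophilins bind their tails, and desmoplakin links that plaque to the keratin filaments. Vimentin forms the filaments of mesenchymal cells instead, and it is also found in many cells grown in culture.

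Krt8 and Krt18 showed the widest differences among these genes. Their probes lay at chr15:101827138-101827197 (minus strand) and chr15:101862341-101862400 (plus strand) on mm9, and in the reference gene table no protein-coding gene lies between them (0 genes between, Krt78 before the pair and Eif4b after it). The 250 bases before the annotated start of both genes are shown together with those of Krt7, a further type II keratin that was low in clusters, and of Vim, which moved the other way. The sequences are from RefSeq on GRCm38.p6, are written 5′ to 3′ on the strand of the gene, and end at the base before the start site. Capitals mark matches to the CAGGTG E-box (CAGGTG, read as CACCTG on the opposite strand), the GC box (GGGCGG or CCGCCC) or, on the gene's own strand, the TATA box letters TATAAA.
Krt8 promoter, chr15:102004343-102004592 (minus strand): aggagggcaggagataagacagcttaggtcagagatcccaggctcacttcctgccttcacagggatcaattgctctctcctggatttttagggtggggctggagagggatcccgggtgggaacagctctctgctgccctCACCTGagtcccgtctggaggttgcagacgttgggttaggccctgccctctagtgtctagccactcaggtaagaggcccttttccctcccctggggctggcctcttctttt
Krt18 promoter, chr15:102027966-102028215 (plus strand): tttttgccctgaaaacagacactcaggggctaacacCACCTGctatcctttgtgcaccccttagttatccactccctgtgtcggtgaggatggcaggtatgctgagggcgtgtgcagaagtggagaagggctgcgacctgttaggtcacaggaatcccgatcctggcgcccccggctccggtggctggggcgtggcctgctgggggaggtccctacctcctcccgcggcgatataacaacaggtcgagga
Krt7 promoter, chr15:101412153-101412402 (plus strand): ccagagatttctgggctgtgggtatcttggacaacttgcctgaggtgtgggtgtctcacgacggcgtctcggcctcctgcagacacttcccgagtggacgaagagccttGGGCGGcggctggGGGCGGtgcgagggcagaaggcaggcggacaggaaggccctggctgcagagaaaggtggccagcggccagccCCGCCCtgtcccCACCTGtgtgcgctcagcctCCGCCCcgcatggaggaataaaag
Vim promoter, chr2:13574061-13574310 (plus strand): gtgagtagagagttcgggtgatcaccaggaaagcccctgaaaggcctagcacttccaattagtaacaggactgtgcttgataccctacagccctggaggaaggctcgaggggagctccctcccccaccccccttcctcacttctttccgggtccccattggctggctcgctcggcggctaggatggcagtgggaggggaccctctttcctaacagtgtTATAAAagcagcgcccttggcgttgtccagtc
The CACCTG of Krt8 lay 111 to 106 bases before the start, that of Krt18 at 214 to 209 and that of Krt7 at 44 to 39. Krt7 also held 4 GC-box matches, and the TATAAA of Vim lay 32 to 27 bases before its start.

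Of the 66 genes, 41 had an entry in the RefSeq promoter table, some with more than 1 start (43 entries). The CAGGTG E-box was present in 14 of the 43 entries and in 17.2% of all 32851 promoters of that length. Lower genes and genes not called held it, and other lower genes did not. Krt5 and Krt72, not called, had it, while the lower genes Krt13, Krt20, Krt42 and Dsp lacked it. Krt10 and Krt77, called higher in clusters, held it too, but neither of those calls was secure. Vim, also called higher, lacked it. TATAAA was found in 15 entries and in 7.59% of all promoters, mostly in front of hair, inner root sheath and epidermal keratins such as Krt25, Krt26, Krt27, Krt28, Krt71 and Krt76. GC boxes occurred in 7 entries (32.7% of all promoters), among them those of Dsp, Jup, Nes and Des. The AP-1 letters TGANTCA occurred in 2 entries, both of Krt13 (6.75% of all), and the grainyhead letters AACCGGTT in none (0 of 43, and 0.116% of all). All were searched on both strands except TATAAA. A match describes letters in a window and does not show that a factor binds there.

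Levels are given as the log2 of the processed probe signal minus the 75th percentile of the same array, so that a level of 0 equals that percentile and a step of 1 is a doubling. Because each probe binds with its own strength, levels compare arrays for 1 gene and do not compare genes. A gene was tested when both arrays of 1 group or of both groups showed its probe well above background, which 46 of the 66 genes reached. Of these, 13 reached it through the islet arrays alone and 2 through the cluster arrays alone. For such genes the filter favours a difference toward the group they entered through. It does not force one, since Krt72 and Krt74 entered through the islets and were not called (limma adjusted p = 0.306 and 0.633). Another 20 genes were not tested, namely Krt1, Krt4, Krt25, Krt26, Krt27, Krt28, Krt32, Krt34, Krt35, Krt39, Krt40, Krt71, Krt75, Krt76, Krt78, Krt84, Dsc1, Dsc3, Dsg3 and Pkp1. No probe of 14 of the 66 genes was well above background on any of the 4 arrays.

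In the limma fit 28 of the 46 tested genes were lower in clusters at an adjusted p under 0.05, 4 were higher and 14 did not pass. The background was wide, since 54.8% of all 24596 genes tested passed, 28.2% of them lower in clusters and 26.6% higher. The median log2 fold change was -1.90 over the 46 genes and -0.10 over all genes. With only probes well above background on all 4 arrays, where no gene could enter through 1 group alone, 17 of 31 members were lower, 2 were higher and 12 did not pass. Over all 20851 genes measured that way, 50.8% passed, with 25.5% lower and 25.3% higher. The normexp correction added an offset of 50 to each corrected signal, which by itself pulls the folds of dim probes toward 0. It moved the folds of 22 of the 32 called members by over 1.5 times, all 22 toward 0. For dim probes a smaller fold or a lost call under normexp was thus partly set in advance. Scaling each array to its median moved the median of all genes by 0.20, and taking the 75th percentile over the probes that all arrays detected moved it by -0.19, so each fold change is relative to such a centre. The 9 called desmosome genes and the 6 simple epithelial keratins were all lower, while most other tested keratins either did not pass or differed by less.

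**Figure D1:**
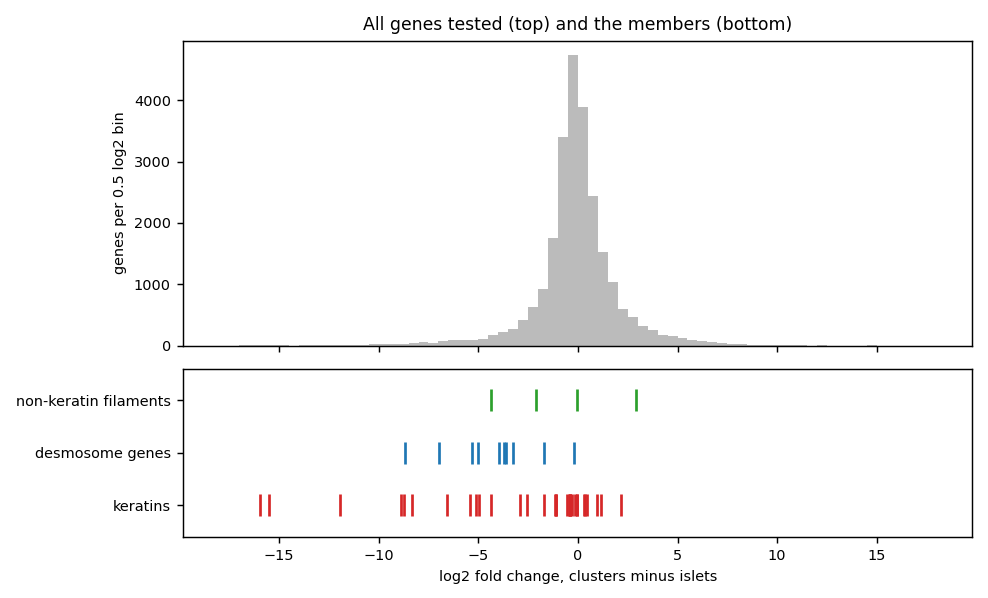
The upper panel is a histogram of the log2 fold change, clusters minus islets, of all 24596 genes tested in bins of 0.5, and each tick of the lower panel is 1 tested keratin, desmosome or non-keratin filament gene. Keratins reach from -15.97 to 2.17, the desmosome genes from -8.69 to -0.19 and the non-keratin filament genes from -4.34 to 2.91, against a median of -0.10 for all genes.

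Between 59.7% and 63.6% of spots were well above background on each array and none was saturated. Across genes the cluster arrays had a Pearson's r of 0.985 with each other, the islet arrays one of 0.989, and pairs from different groups 0.796 to 0.810 (genes are not independent replicates). Marker genes of acinar, islet endocrine, duct, endothelial and mesenchymal stromal cells moved mostly 1 way within each list, while other lists were mixed. Over all genes tested 28.2% were lower in clusters and 26.6% higher. Of 6 macrophage markers 2 were lower in clusters, 1 higher and 3 not passing, and of 6 smooth muscle markers 2 were lower, 2 higher and 2 not passing. The mesothelial and skeletal muscle lists each had 3 tested, 2 lower and 1 higher. All 13 acinar markers were lower in clusters, and their summed linear signal, in units of the 75th percentile, was 1.72 and 1.53 in clusters and 4570 and 7420 in islets, with Cpa1, Cela2a, Cela3b, Pnlip, Amy2a5, Ptf1a and Bhlha15 not above background in clusters. Of 12 islet endocrine markers 11 were lower and 1 higher (2.82 and 2.16 in clusters, 184 and 32.2 in islets), with Gcg, Ppy, Iapp and Slc2a2 not above background in clusters. Of 10 duct markers 9 were lower and 1, the secreted phosphoprotein Spp1, was higher. Their sum was 635 and 543 in clusters against 279 and 238 in islets, of which Spp1 made up 633 and 542 against 76.6 and 72.2, and without it the sum was 1.17 and 1.65 against 203 and 166, with Krt7, Tff2 and Epcam not above background in clusters. All 11 mesenchymal stromal markers were higher in clusters (2220 and 1860 against 37.9 and 47), and Twist1 was not above background in islets. The duct list shares Krt7 and Krt19 with the genes described here, and the part of each cell type in the differences was not tested. In bulk RNA fewer cells of a type and less RNA per cell cannot be told apart.

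The 6 keratins of simple epithelia were all lower in clusters (median -10.14 on the log2 scale). The share of all genes tested that were lower was 28.2%. Krt7, Krt8, Krt18 and Krt19 passed the filter through the islet arrays alone, where they were brighter. Krt18, the type I partner, read -6.36 and -6.38 in clusters and 9.47 and 9.72 in islets. Krt8, its type II partner, read -5.61 and -6.81 in clusters and 9.29 and 9.36 in islets. The cluster signal of both was not well above background, so the pair was far below the islets by an amount not fixed here. Working limits, given as "at least", set the islet mean against a floored cluster signal. On each cluster array that was the higher of the probe's own signal and the lowest signal among well-detected probes. On cluster array 1, where that lowest signal was -5.31, Krt15 read -4.90 without being well above background. The limits are therefore not strict. They came to at least 28625-fold for Krt18 and at least 23682-fold for Krt8, with log2 fold changes of -15.97 ± 0.23 and -15.53 ± 0.36 (SE; limma adjusted p = 1.3e-09 and 4.18e-09). With a different background correction (normexp) the log2 changes were -11.91 and -11.69, which are smaller than those limits, as held for all 10 keratin and desmosome genes with such a limit for the gene as a whole. A second probe of Krt8 gave -6.82 and -6.04 in clusters and 8.03 and 7.63 in islets, lower by at least 8418-fold, again with clusters not above background. The 2 cluster arrays differed by 1.20 for Krt8 and by 0.01 for Krt18, and for Krt8 the fold change was -16.13 without cluster replicate 1 and -14.93 without cluster replicate 2.

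The ductal keratins differed less, but their groups were as clearly apart. Krt19, a type I keratin of ducts without a tail domain, read -5.50 and -4.62 in clusters and 7.23 and 6.58 in islets (log2 fold change -11.96 ± 0.34, limma adjusted p = 1.11e-08). Of the 2 cluster arrays, 1 showed it well above background. Krt7, the type II keratin of duct cells, read -6.12 and -6.25 in clusters and 2.59 and 1.70 in islets, lower by at least 163-fold (-8.33 ± 0.31, limma adjusted p = 3.75e-08). Neither gene's lowest islet array came near its highest cluster array. Krt20, a keratin of intestinal epithelium, and Krt23, a further type I keratin, were the simple keratins that remained well above background on both cluster arrays. Krt20 read -0.09 on both cluster arrays and 5.02 and 5.06 in islets, 35-fold lower (-5.13 ± 0.23, limma adjusted p = 1.03e-07). Krt23 read 2.20 and 2.00 in clusters and 6.89 and 7.26 in islets, 31.4-fold lower (-4.97 ± 0.25, limma adjusted p = 2.16e-07). For both the fold changes stayed close under normexp (-4.82 and -4.91), whereas those of Krt19 and Krt7 shrank to -9.23 and -4.45.

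**Figure D2:**
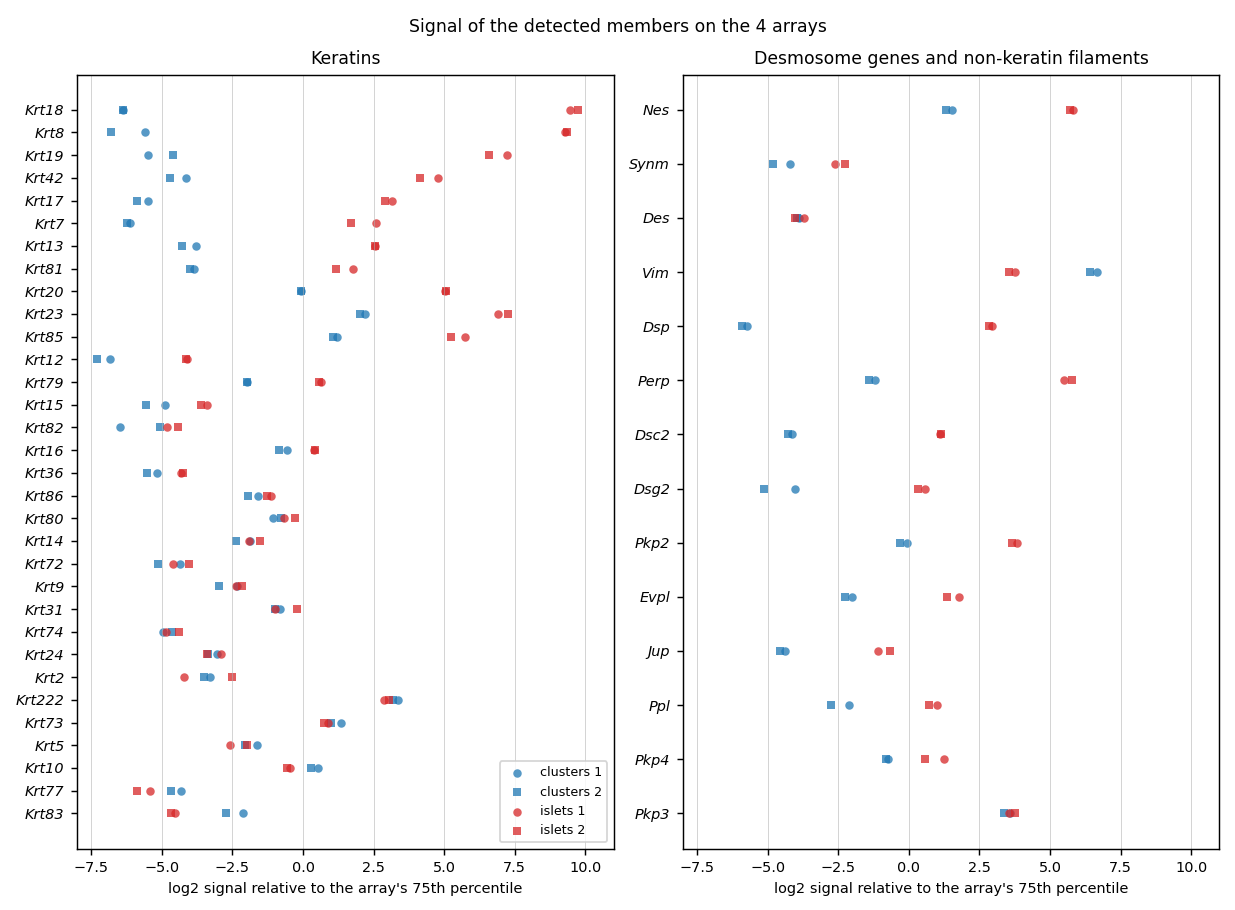
Each row is 1 tested gene and each mark its level on 1 array (log2 signal relative to the 75th percentile of that array), circles for replicate 1 and squares for replicate 2, blue for islet-like clusters and red for islets. Krt18 and Krt8 lie furthest apart, the groups overlap in the rows from Krt14 to Krt2, and Vim is far to the right in clusters, at 6.68 and 6.43 against 3.75 and 3.55.

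Keratins of basal, stratified and epidermal layers were mixed. Of 18 on the array, 14 were tested, 6 of them lower in clusters, 2 higher and 6 not passing, with a median of -0.43. The part that passed was near the 54.8% of all genes. Krt17, a keratin of basal and appendage cells that is also induced under stress, read -5.48 and -5.88 in clusters and 3.15 and 2.90 in islets. It was lower by at least 301-fold (-8.71 ± 0.25, limma adjusted p = 1.16e-08). Krt13, a keratin of non-cornifying stratified epithelia, read -3.78 and -4.29 in clusters and 2.55 and 2.56 in islets, 96.1-fold lower (-6.59 ± 0.26, limma adjusted p = 4.8e-08). A second Krt13 probe did not show this. It was not above background in islets (-5.67 and -6.78) and was so on 1 cluster array (-4.87 and -4.96). Krt4, the type II partner of Krt13, was not well above background on both arrays of either group, so no pairing could be read.

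The other 4 lower genes of this class differed by smaller amounts. Krt79, a keratin of the hair follicle opening, read -1.98 and -1.97 in clusters and 0.63 and 0.56 in islets (-2.57, limma adjusted p = 1.09e-05). Krt16, a stress-induced partner of Krt6, read -0.58 and -0.85 in clusters and 0.37 and 0.42 in islets (-1.11, limma adjusted p = 0.00315). The fold change of Krt16 was -1.13 without islet replicate 1 and -1.08 without islet replicate 2. The remaining pair was dim. Krt12, the keratin of corneal epithelium, was not above background in clusters, at -6.82 and -7.29 against -4.12 and -4.15, lower by at least 2.11-fold (limma adjusted p = 9.24e-06). Krt15, a keratin of basal cells, read -4.90 and -5.55 in clusters and -3.40 and -3.61 in islets, lower by at least 2.82-fold (limma adjusted p = 6.36e-04). Without the filter on dim probes another probe stood for Krt12, and its fold change was -0.51 (adjusted p = 0.201).

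Krt5 and Krt14, the pair of basal cells in stratified epithelium, showed no difference past the threshold. Krt14, the type I keratin of basal cells, read -1.88 and -2.39 in clusters and -1.92 and -1.51 in islets (-0.42, limma adjusted p = 0.221). Krt5, its type II partner, read -1.62 and -2.06 in clusters and -2.60 and -1.97 in islets (0.44, limma adjusted p = 0.221). In Krt14 and Krt5 the arrays of the groups overlapped. Krt80 (-0.44), Krt9 (-0.38), Krt24 (-0.07) and Krt2 (-0.05) did not pass either, with adjusted p between 0.164 and 0.934. Krt2, of the upper epidermis, had islet arrays as far apart as -4.20 and -2.51, on either side of the clusters at -3.29 and -3.52. Krt80, a widely expressed type II keratin, read -1.05 and -0.79 in clusters and -0.68 and -0.28 in islets, and Krt9, of palm and sole skin, read -2.34 and -2.99 against -2.39 and -2.17. Krt24, a type I keratin, read -3.05 and -3.36 in clusters and -2.90 and -3.39 in islets. Of these only Krt80 had groups that did not overlap. A p that misses the threshold with 2 arrays a group does not show that levels were equal.

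Krt10 and Krt77 were the members of this class higher in clusters, and neither was secure. Krt10, the type I keratin of suprabasal epidermis, read 0.53 and 0.29 in clusters and -0.48 and -0.58 in islets (0.95 ± 0.23, limma adjusted p = 0.0073). A second Krt10 probe read -4.77 and -5.48 in clusters and 0.18 and -0.53 in islets, which is the opposite direction (limma adjusted p = 9.92e-06). That probe was not above background in clusters, so its difference is at least 27.2-fold. By the first probe the fold change stayed between 0.83 and 1.06 when 1 array at a time was left out. Krt77, a type II keratin of sweat gland ducts, read -4.32 and -4.69 in clusters and -5.42 and -5.89 in islets, where it was not above background (1.15, limma adjusted p = 0.00518). With dim signals raised to the floor that sets its lower limit of 1.56-fold, the call was lost (adjusted p = 0.0509). Its fold change was -0.06 under normexp (adjusted p = 0.857), and between 0.91 and 1.38 when 1 array at a time was left out.

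The last class, named for hair shaft, nail and inner root sheath, took every keratin outside the other classes, so not each member need be of those tissues. Of its 24 keratins 12 were tested, and 5 were lower, 1 higher and 6 not passing (median -0.49). Here too the part that passed was near the 54.8% of all genes. Krt42, a type I keratin of nail, read -4.13 and -4.71 in clusters and 4.79 and 4.13 in islets, 472-fold lower (-8.88 ± 0.31, limma adjusted p = 2.52e-08). A second Krt42 probe was not above background on any array (-7.29 and -6.78 in islets), so this difference rests on 1 probe. Krt81, a type II hair keratin, read -3.86 and -4.00 in clusters and 1.76 and 1.18 in islets, 42.3-fold lower (-5.40 ± 0.27, limma adjusted p = 2.07e-07). By the probes used, Krt42 and Krt81 were above background on all 4 arrays but dim in clusters. Under normexp their log2 fold changes were -6.51 and -3.59.

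Krt85, a type II keratin of the hair matrix, rested on its probe. The probe used, which the files place at no position of the genome, read 1.20 and 1.06 in clusters and 5.74 and 5.25 in islets (-4.37 ± 0.26, limma adjusted p = 6.51e-07). The second probe, which is placed on the genome, read 0.64 and 0.33 in clusters and 0.21 and 0.48 in islets (0.14, limma adjusted p = 0.654), so it shows no such difference. Of the genes described here, 18 had several probes and 5 had several that passed the filter (Krt8, Krt10, Krt85, Dsg2 and Synm). Krt10 was the 1 gene whose probes were called in opposite directions.

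**Figure D3:**
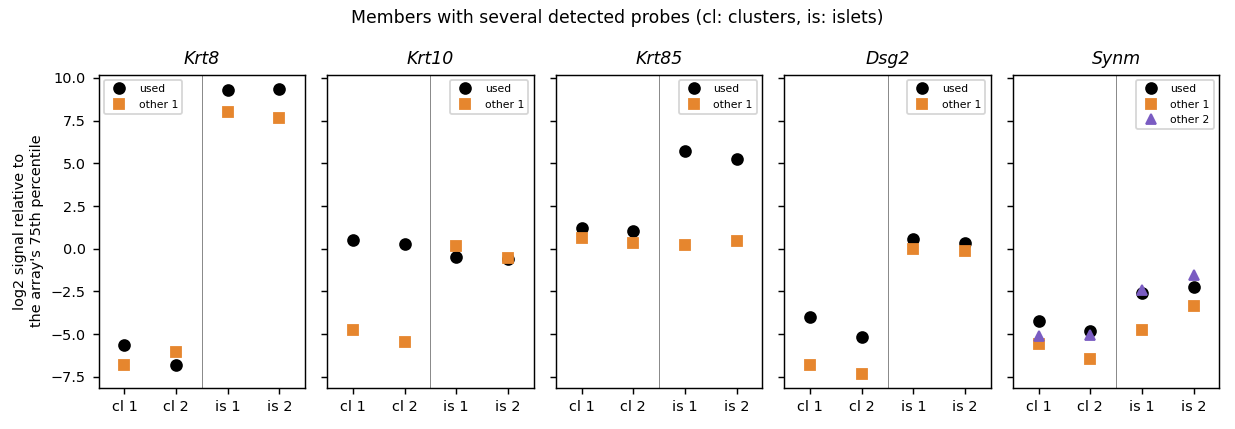
Levels (log2 signal relative to the array's 75th percentile) of every probe that passed the filter, on the 2 cluster arrays (cl) and 2 islet arrays (is), for the 5 genes with more than 1 such probe; black circles are the probe used. The probes of Krt8, Dsg2 and Synm fall on the same side, those of Krt10 are turned, and the second probe of Krt85 stays between 0.21 and 0.64 on all 4 arrays.

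Krt83 (now Krt87), a type II hair keratin, was the 1 gene of this class higher in clusters. It read -2.13 and -2.73 in clusters and -4.53 and -4.68 in islets, where 1 of 2 arrays was well above background (2.17 ± 0.27, limma adjusted p = 1.10e-04). Under normexp the difference was 0.52 and did not pass (adjusted p = 0.0553). The Krt83 probe shares a run of 24 identical bases with the probe of Krt81, which went the other way; no other pair of probes of different genes described here shared a run of 20 or more of their 60 bases.

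Krt36 and Krt82 were lower by small amounts and not above background in clusters. Krt36, a type I hair keratin, read -5.19 and -5.54 in clusters and -4.32 and -4.24 in islets (at least 1.82-fold lower, limma adjusted p = 0.00421). Krt82, of the hair cuticle, read -6.49 and -5.08 in clusters and -4.82 and -4.43 in islets (at least 1.49-fold, limma adjusted p = 0.0384). Under normexp neither call passed, with Krt36 at -0.38 (adjusted p = 0.177) and Krt82 at -0.30 (0.297). Krt82 was also lost under median scaling (adjusted p = 0.199). Leaving out 1 array at a time gave -1.26 to -0.91 for Krt36. For Krt82 the difference was -0.45 without cluster replicate 1, -1.87 without cluster replicate 2 and -0.97 without islet replicate 2. Krt31, Krt72, Krt73, Krt74, Krt86 and Krt222 did not pass, with fold changes from -0.56 (Krt86) to 0.36 (Krt73) and limma adjusted p between 0.0746 and 0.633. Krt222, a short type I keratin, read 3.36 and 3.19 in clusters and 2.86 and 3.04 in islets, and the inner root sheath keratin Krt73 read 1.35 and 0.98 in clusters and 0.89 and 0.73 in islets. In Krt222 and Krt73 each cluster array lay above each islet array by a margin that did not pass. The hair keratin Krt86 read -1.61 and -1.95 in clusters and -1.15 and -1.28 in islets, below on both arrays. Krt31, of the hair cortex, read -0.82 and -0.98 in clusters and -1.01 and -0.21 in islets. The inner root sheath keratins Krt72 and Krt74 read -4.35 and -5.14 and -4.96 and -4.63 in clusters, against -4.62 and -4.05 and -4.87 and -4.41 in islets. The groups overlapped for Krt31, Krt72 and Krt74.

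By filament type, 11 of 17 tested type I keratins were lower in clusters and 1 was higher (median -1.72), and 6 of 15 type II keratins were lower and 2 higher (median -0.44). These counts stand beside 28.2% of all genes tested lower and 26.6% higher. The part of type II keratins called either way was near the 54.8% of all genes. Mouse type I keratins sit together on chromosome 11 and type II keratins on chromosome 15. On mm9 the probes of 25 type I genes spanned 1030 kb of chromosome 11, and those of 21 type II genes and Krt18 spanned 682 kb of chromosome 15. Of the 16 type I genes tested on chromosome 11, 10 were lower and 1 higher. On chromosome 15, 5 of 14 type II genes tested and placed were lower and 2 higher. Krt18 is the type I gene that lies outside its family's block, at the end of the type II block beside Krt8. Wide and narrow differences stood side by side, as at Krt14 (-0.42), Krt16 (-1.11), Krt17 (-8.71) and Krt42 (-8.88) on chromosome 11, or Krt80 (-0.44) next to Krt7 (-8.33) on chromosome 15.

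**Figure D4:**
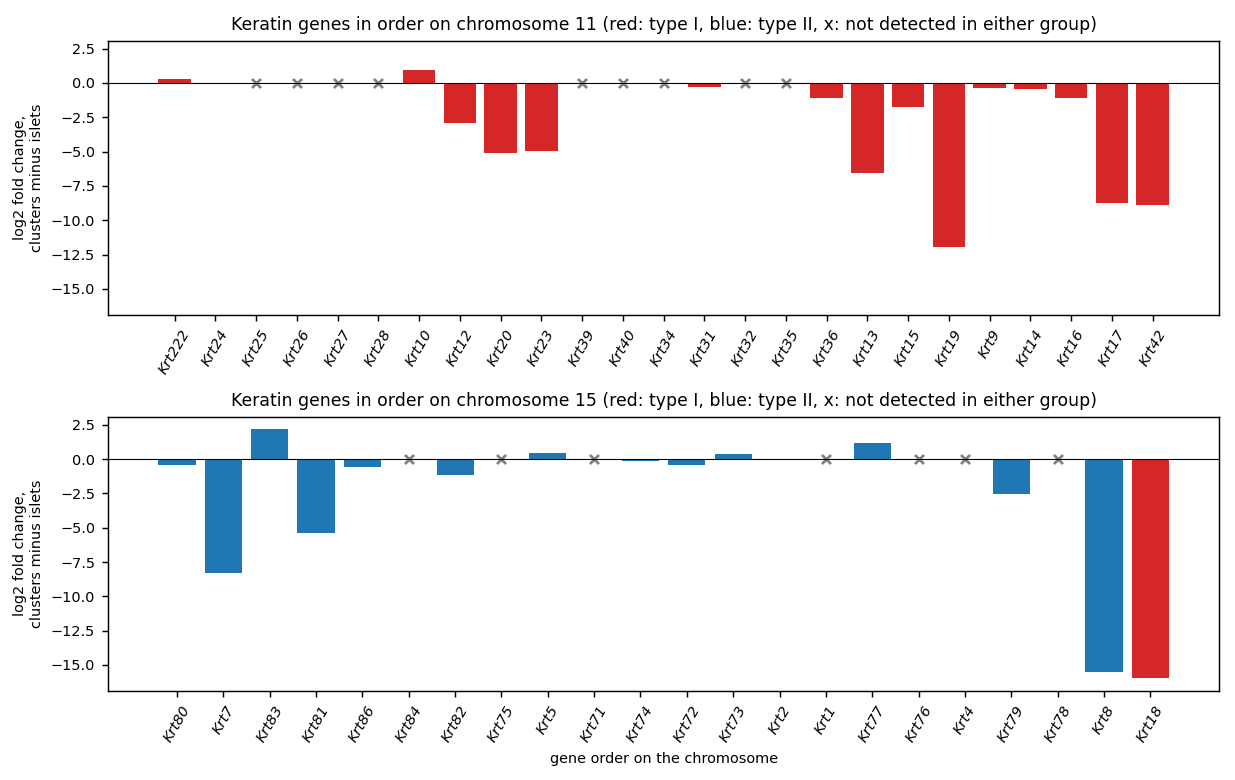
Log2 fold change, clusters minus islets, of the placed keratin genes in their order on chromosome 11 (upper panel) and chromosome 15 (lower panel), bars red for type I and blue for type II, crosses for genes that did not pass the detection filter. On chromosome 11 the low bars are Krt12, Krt20, Krt23, Krt13, Krt19, Krt17 and Krt42, and on chromosome 15 the adjacent Krt8 (-15.53) and Krt18 (-15.97) are lowest.

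Of the 10 desmosomal genes tested, 9 were lower in clusters and 1 did not pass, with a median of -3.82. The share of all genes tested that were lower was 28.2%. Dsp and Dsg2 passed the filter through the islet arrays alone, where they were brighter. Both tested cadherins were lower. Dsc2, desmocollin 2, read -4.13 and -4.27 in clusters and 1.11 and 1.15 in islets, 40.2-fold lower (-5.33, limma adjusted p = 8.59e-08). Dsg2, desmoglein 2, the desmoglein of simple epithelia, read -4.02 and -5.14 in clusters, where 1 array was well above background, and 0.57 and 0.34 in islets. It was 32.7-fold lower (-5.03 ± 0.35, limma adjusted p = 2.17e-06), and a second probe, not above background in clusters, gave at least 35.7-fold. Dsc1, Dsc3 and Dsg3, cadherins of stratified epithelia, were not well above background on both arrays of either group.

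In the plaque, Dsp, desmoplakin, the link to keratin filaments, had the widest difference. It read -5.72 and -5.89 in clusters, not above background, and 2.93 and 2.85 in islets, lower by at least 274-fold (-8.69 ± 0.23, limma adjusted p = 7.72e-09). A second Dsp probe was not above background on any array (-4.87 and -5.18 in islets), so this difference rests on 1 probe. Perp, a membrane protein needed for desmosome assembly, read -1.19 and -1.42 in clusters and 5.51 and 5.79 in islets, 124-fold lower (-6.96, limma adjusted p = 2.58e-08). The plakophilins differed among themselves. Pkp2, the plakophilin of simple epithelia and heart, read -0.08 and -0.31 in clusters and 3.85 and 3.66 in islets, 15.5-fold lower (-3.95, limma adjusted p = 7.63e-07). Pkp4, which is found at adherens junctions as well, read -0.73 and -0.82 in clusters and 1.26 and 0.58 in islets, 3.25-fold lower (-1.70, limma adjusted p = 6.74e-04). Pkp3 read 3.58 and 3.36 in clusters and 3.56 and 3.76 in islets, and its difference of -0.19 ± 0.24 did not pass (limma adjusted p = 0.515). It was the 1 tested desmosome gene whose groups overlapped.

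The remaining plaque and plakin genes were lower by 9.70-fold to 13.0-fold. Jup, plakoglobin, which also serves adherens junctions, read -4.37 and -4.55 in clusters and -1.10 and -0.65 in islets, 12.0-fold lower (-3.59, limma adjusted p = 2.27e-06). Evpl, envoplakin, read -2.00 and -2.26 in clusters and 1.78 and 1.37 in islets, 13.0-fold lower (-3.70, limma adjusted p = 1.88e-06). Ppl, periplakin, its partner in the cornified envelope, read -2.10 and -2.76 in clusters and 1.00 and 0.70 in islets, 9.70-fold lower (-3.28, limma adjusted p = 9.7e-06). Within each of these genes the replicates lay much closer to each other than the groups did.

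**Figure D5:**
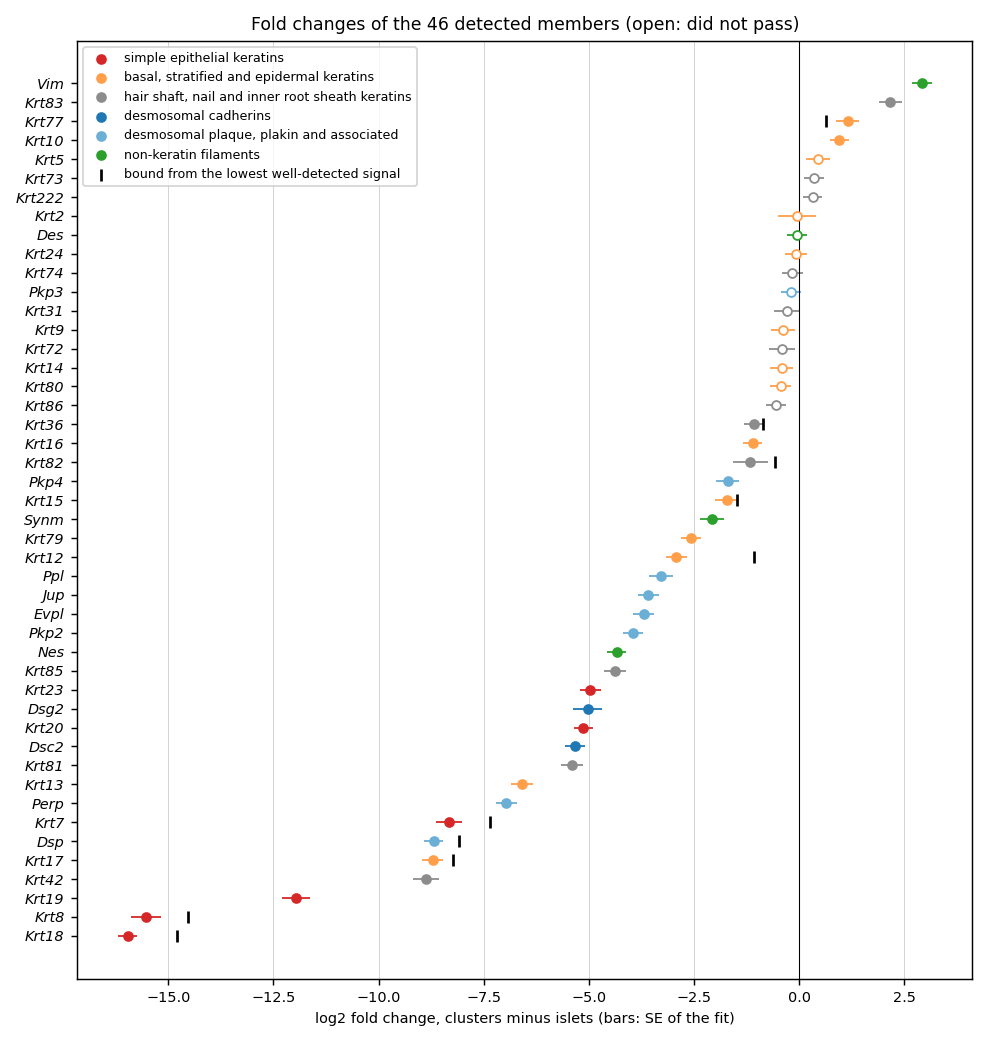
Log2 fold change, clusters minus islets, of the 46 tested genes in order, with bars for the SE of the limma fit, filled marks for an adjusted p under 0.05, colours for the gene class and black ticks for the bound where 1 group was not above background. Krt18, Krt8 and Krt19 are lowest, the desmosome genes lie between -8.69 (Dsp) and -0.19 (Pkp3), and Vim, Krt83, Krt77 and Krt10 are the filled marks above 0.

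The 4 filament genes outside the keratin family did not move as 1 group. Vim, vimentin, read 6.68 and 6.43 in clusters and 3.75 and 3.55 in islets, 7.50-fold higher in clusters (2.91 ± 0.24, limma adjusted p = 6.59e-06). It was well above background on all 4 arrays, so the islet samples held vimentin RNA too. Nes, nestin, a filament protein of progenitor and endothelial cells, read 1.54 and 1.32 in clusters and 5.83 and 5.71 in islets, 20.3-fold lower (-4.34, limma adjusted p = 3.68e-07). All 6 endothelial markers were lower in clusters too, summing to 3.56 and 2.90 there and 16.1 and 16.2 in islets, with Cdh5, Tek, Robo4 and Emcn not above background in clusters, and their part in the nestin difference was not tested. Synm, synemin, a partner of vimentin and desmin, read -4.20 and -4.80 in clusters and -2.60 and -2.25 in islets (-2.08 ± 0.28, limma adjusted p = 1.91e-04), and its other probes, not above background in clusters, gave at least 2.24-fold and 8.35-fold. Des, desmin, the filament of muscle, read -3.89 and -3.96 in clusters and -3.72 and -4.04 in islets and did not pass (-0.05, limma adjusted p = 0.871). The groups overlapped for desmin, whereas vimentin and nestin moved in opposite directions.

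Genes that act with keratins and desmosomes were read from a further list of 47 on the array, of which 40 were tested. Of these 23 were lower, 7 higher and 10 not passing (median -1.96), beside 28.2% lower and 26.6% higher over all genes. In the adherens junction 4 of 6 were lower and 1 higher. The normexp correction gave smaller changes than the "at least" value of all 8 related genes named with one for the gene as a whole, as with -9.15 on the log2 scale for Cdh1 and -1.97 for Tgm1. Cdh1, E-cadherin, read -6.66 and -6.59 in clusters and 6.57 and 6.91 in islets (at least 3944-fold lower, limma adjusted p = 1.84e-09). Cdh2, N-cadherin, read 3.40 and 3.28 in clusters and -1.08 and -1.36 in islets (4.56 higher in clusters, limma adjusted p = 2.97e-07). Cdh3, P-cadherin, was lower by at least 3.90-fold (limma adjusted p = 4.53e-04). Ctnnd1, p120 catenin, which binds cadherin tails, was lower too (limma adjusted p = 8.97e-08), but its probe was not above background in clusters, so the difference is at least 16.1-fold. A second probe of Ctnnd1, also at background in clusters, gave at least 1.74-fold, and with non-uniform spots kept the log2 fold change was -1.93. The epithelial and the neural cadherin lay on opposite sides, as Krt8 and Vim did.

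All 7 genes of the hemidesmosome, the anchor of keratin filaments to the basement membrane, and of the cytolinkers passed, in both directions. Over all genes tested 54.8% passed. Eppk1, epiplakin, a keratin-binding linker, was lower by at least 918-fold (-10.89, limma adjusted p = 6.03e-09), and the integrin chains Itgb4 (-6.77) and Itga6 (-3.69) were lower too, although a second Itga6 probe did not pass (-0.60, adjusted p = 0.0685). Col17a1, the hemidesmosomal collagen, was higher (3.17, limma adjusted p = 3.17e-06), as were the linkers Dst (2.74) and Macf1 (1.56, and 1.31 without islet replicate 2). Hemidesmosomal genes split, with the integrin chains lower by the probes used and the collagen higher.

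Of 5 cornified envelope genes on the array 4 were tested, and Tgm1, the cross-linking transglutaminase (at least 20.4-fold), and Sprr1a (-5.76, limma adjusted p = 7.51e-07) were lower. The 11 further filament genes gave 4 lower, 2 higher and 5 not passing. The part that passed was near the 54.8% of all genes. Nefh, Nefl, Prph and Sync entered through the islet arrays alone, and Nefm and the Dmd probe used through the cluster arrays alone. The neurofilament genes Nefh (at least 8.43-fold) and Nefl (at least 2.18-fold) were lower, the lamin gene Lmnb1 had a log2 fold change of -2.72, and Nefm was higher by at least 5.42-fold (0.51 under normexp, adjusted p = 0.0619). Dmd, dystrophin, was higher by 1.27, a call lost under normexp (0.23, adjusted p = 0.433). Leaving out 1 array at a time gave 1.00 to 1.53 for Dmd. With its probes averaged Dmd was called in the opposite direction (-1.02, adjusted p = 0.00616). Krt6b, the 1 gene tested among further keratins and desmogleins, had a log2 fold change of -1.13 (limma adjusted p = 0.00904). That change ranged from -1.51 to -0.74 when 1 array at a time was left out.

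Of 11 tested regulators of epithelial genes, 9 were lower and 2 did not pass, beside 28.2% lower over all genes tested. Elf3, Esrp2, Grhl3 and Ovol1 passed the filter through the islet arrays alone, where they were brighter. Elf3, an epithelial transcription factor, was lower by at least 201-fold (-9.19, limma adjusted p = 2.32e-08). Esrp2, an epithelial splicing regulator, differed by -7.50, but its cluster arrays read -6.82 and -4.01, and with a variance trend and robust fit its adjusted p was 0.0555. Grhl2, a grainyhead factor of epithelial junction genes, read -4.25 and -4.44 in clusters and 2.82 and 2.85 in islets (-7.18, limma adjusted p = 1.84e-08), and its second probe, not above background in clusters, gave at least 6.48-fold. Trp63, the p63 factor of stratified epithelia, read 2.31 and 1.96 in clusters and 2.24 and 2.38 in islets and did not pass (-0.17, limma adjusted p = 0.563). Its other probes disagreed. A second read -3.40 and -3.68 in clusters and -3.31 and -2.99 in islets (-0.39, adjusted p = 0.219), and the last read -2.80 and -2.93 in clusters and was not above background in islets (at least 5.68-fold higher, adjusted p = 2.41e-05). With the probes averaged Trp63 was higher in clusters by 1.13 and passed (adjusted p = 0.00445), so no direction is given for it.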

How the data were processed

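The members, the gene lists and the tests were chosen with earlier results of these data known. Per the labels' protocols, labelling with Cy3 started from 500 ng of total RNA with an oligo-dT primer. The authors deposited scanner files of linear spot intensity, made with Agilent Feature Extraction 11.5.1.1 per the file headers, with probe positions on mm9; the processed signal is background-subtracted. The deposited value table of the authors holds log2 values (r with the scanner values 0.99995 to 0.99998, column medians -3.61, -3.70, -3.50 and -3.37) with no centring per gene. It served as an alternative only.

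Values were log2 of the processed signal minus each array's 75th percentile over non-control probes. Control and non-uniform spots were left out (510, 2, 26 and 4 non-uniform spots), and 490 of 55681 probes then lacked a value. A probe was kept when both arrays of a group showed it well above background (34974 probes), and the kept probe with the highest mean stood for each gene name. The comparison used limma 3.58.1 under R 4.3.3 (lmFit, eBayes, 2-sided, no covariates; 2 residual and 9.06 total degrees of freedom) and Benjamini-Hochberg adjustment over 24596 genes at a threshold of 0.05. The fit was tested on simulated data. The number of arrays limits the precision. Alternatives were normexp background correction with an offset of 50, other scalings and filters on dim probes, and a floor for dim signals. Others were non-uniform spots kept, averaged probes per gene, a robust fit with variance trend, a replicate block and leaving out each array. Each other kept probe was also used, chosen after seeing the data.

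All tested members are given with their values, and of the related genes up to 3 called genes per list and direction, plus Cdh1, Cdh2, Grhl2 and Trp63. Accessions of 83 of the 91 probes matched the reference gene table (GRCm38.p6), 1 of them to another symbol.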

Additional observations from a re-analysis of the deposited data

How the results depend on the processing

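Leaving out 1 array at a time gave 14 to 17 lower keratins (17 with all arrays) and 1 to 3 higher ones (3), 22 to 23 lower related genes (23) and 4 to 7 higher ones (7), while 9 lower desmosome genes were found each time. Over all genes it gave 3909 to 5404 higher calls (6545) and 3741 to 5442 lower ones (6945), the fewest without islet replicate 2 (3909 and 3741) and 4102 and 4164 without islet replicate 1; related genes numbered 4 higher without islet replicate 2, and keratins 1 higher without cluster replicate 1 or islet replicate 2. Fits with 1 array left out keep only 1 array in a group, so a lost call can reflect less data alone. Normexp left 1 higher keratin. Keeping only probes above background on all arrays left 19 keratins with 1 higher and 8 lower, and 25 related genes with 12 lower, because fewer genes were tested. With those probes 50.8% of all genes passed, 25.5% lower and 25.3% higher. Deviations of samples with the same replicate number had a correlation of -0.0235 over 24596 genes. With 1 such deviation per group this cannot tell whether those samples share animals. With the replicate number as a block 16 keratins and 9 desmosome genes were lower and 3 keratins higher, with 5729 higher and 5578 lower calls over all genes. Krt6b then missed the threshold (limma adjusted p = 0.0502). Signs turned for Krt77 under normexp (-0.06), and under median scaling for Des (0.14), Krt2 (0.14), Krt24 (0.13), Krt74 (0.04), Pkp3 (0.00) and Trp63 (0.02). Averaging probes turned Dmd (-1.02), Krt10 (-2.00) and Trp63 (1.13), all of which then passed, and another probe turned Krt10 (-4.95) and Krt85 (0.14). Leaving out 1 array at a time gave differences, on either side of 0, of -0.21 to 0.11 for Des, -0.89 to 0.79 for Krt2, -0.31 to 0.18 for Krt24, -0.69 to 0.11 for Krt31 and -0.39 to 0.08 for Krt74. The cause of these changes was not tested. Krt82 missed the threshold under 10 alternatives, while Krt86 passed under 3 and Krt222 under median scaling (0.52, adjusted p = 0.0318). The counts of desmosome and non-keratin filament genes called stayed within 1.5 times of their main values under every alternative run. Dim signal limits Krt8, Krt18, Krt7, Krt17 and Dsp, whose cluster levels were not well above background.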
